A study of Mus musculus with 8 samples.

Results

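The 8 genes described here are the AP-1 members Fos, Fosb, Fosl1, Fosl2, Jun, Junb, Jund and Atf3, out of 55401 genes measured by RNA-seq in each dish of AML12 cells. They were selected by symbol as the Fos and Jun families with Atf3, and they were chosen with the contrast of control and exposed dishes in view, so their values in that contrast are a description and were not tested. AML12 is a hepatocyte line from the liver of a mouse that carried a human TGF alpha transgene, and it was cultured in medium with serum, dexamethasone and insulin. The series held 4 control dishes and 4 dishes kept for 1 h under Opti-ELF-WMF, a pulsed magnetic field of 10 µT (100 mG) with a pulse width of 4 ms and frequencies stepping from 1 to 8 Hz. All dishes came from a single batch of cultured cells. The control dishes stood over a stimulator that was switched off, in a different incubator of the same model, so the incubator and the exposure cannot be told apart.

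AP-1 is a dimer of basic leucine zipper proteins that binds DNA and controls genes of growth, stress responses and the extracellular matrix. Jun proteins pair with each other or with Fos proteins, whereas Fos proteins need a Jun partner to bind DNA. In the liver, several AP-1 genes are known as immediate-early genes that are induced within minutes by growth factors, serum, injury and stress. Jun is needed for normal regeneration of the organ.

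Levels are given as TPM, which divides reads by transcript length and scales each dish to the same total. TPM can therefore be compared between genes, but it keeps no sequencing depth, so the depth of each dish is unknown. The number of genes above 0 ran from 19386 to 20114 per dish, and both ends of that range were exposed dishes. Differences are those of mean log2(TPM + 1), exposed minus control, a scale on which changes of weakly expressed genes look smaller than they are.

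The hepatocyte label was compared with marker genes. Of 16 hepatocyte markers, 12 had a mean TPM of at least 1, and Krt8, a keratin of simple epithelia, was the most abundant at 2305 TPM. Hnf4a, the nuclear receptor that maintains hepatocyte identity, had 187 ± 8.22 TPM (SD, n = 4) in control dishes, and Alb, which encodes albumin, had 55.1 ± 2.67 TPM. Fgb, Tat, Cps1 and Ahsg, which mark mature hepatocytes, were below 1 TPM. The summed TPM of the hepatocyte markers was 5944, 5995, 5730 and 5952 in control dishes. It was 6198, 6319, 6126 and 6089 in exposed dishes, so the exposed dishes lay above the controls. Krt8 and Krt18 made up most of each sum, and the sum was not compared without them. Among the 16 genes, Krt8 and its partner keratin Krt18 were higher in every exposed dish by TPM, and the dishes of the others overlapped. The means of control and exposed dishes were 2248 and 2361 TPM for Krt8 and 1905 and 2029 TPM for Krt18. The highest control dish of Krt8 was at 2280 TPM and the lowest exposed dish at 2305 TPM. Whether the keratins or the sum stay apart under other scalings of the dishes was not tested. Among the markers above 1 TPM, the means of Alb, Apoa1 and Ttr were lower in exposed dishes, at 49.7, 3.77 and 348 TPM against 55.1, 4.54 and 358 TPM. The part of these differences in the AP-1 values was not tested. The 5 biliary markers were led by Krt19 at 1161 TPM, with Epcam below 1 TPM, and their sum was 1639 ± 41.9 TPM in control and 1658 ± 58.9 TPM in exposed dishes (SD, n = 4 each). All 10 fibroblast or stellate markers and all 5 endothelial markers were below 1 TPM in the mean. Lum and Cdh5 were listed at 0 in every dish, and the highest sum in a dish was 1.99 TPM for the fibroblast or stellate and 0.09 TPM for the endothelial list. Among 7 macrophage markers, 2 reached 1 TPM in the mean, while Adgre1 and C1qa were listed at 0 in every dish, and Cd14, which hepatocytes also express, made up most of the sum of 146 ± 5.69 TPM in control and 151 ± 4.65 TPM in exposed dishes. In bulk RNA, fewer cells of a type and less RNA per cell cannot be told apart.

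Among the Fos family, Fosl1 was the abundant gene. Fosl1 encodes FRA-1, a Fos protein without the strong activation domain of FOS, whose gene is a known output of ERK signalling. Its TPM was 65.3, 69.1, 65.7 and 66.5 in the 4 control dishes and 73.2, 78.6, 76.0 and 79.7 in the 4 exposed dishes. Every exposed dish was above every control dish, with a gap between 69.1 and 73.2 TPM. The means were 66.6 ± 1.72 and 76.9 ± 2.89 TPM (SD, n = 4 each), a ratio of 1.15 and a difference of 0.20 on the log2 scale (standard error 0.03). Standard errors of the 8 members come from the dishes of that gene alone, and those of the genes in the lists further on are limma's, which draw on all tested genes, so the 2 kinds are not compared. The difference lay between 0.17 and 0.23 under the 12 alternative settings that can move it, and the lowest value came from rescaling each dish without the 37 genes of mitochondrial DNA. After that rescaling the control dishes had 71.5, 75.7, 72.5 and 73.0 TPM and the exposed dishes 78.7, 83.6, 82.3 and 86.2 TPM, which again did not overlap. Of 12122 genes tested, 324 had a difference at least as high as that of Fosl1.

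The same rescaling bears on every gene, because the 37 mitochondria-encoded genes held 8.72%, 8.69%, 9.42% and 8.93% of TPM in control dishes and 6.96%, 5.99%, 7.69% and 7.52% in exposed dishes. All exposed dishes were below all control dishes in this share. A smaller share of these transcripts raises the TPM of the others by construction, and the median difference of all tested genes was 0.026 before and -0.002 after the rescaling.

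Fosl2 encodes FRA-2, the other Fos protein of this kind. Its TPM was 15.6, 16.4, 17.6 and 15.9 in control dishes and 13.5, 16.3, 13.3 and 16.5 in exposed dishes. Exposed replicates 1 and 3 were below all control dishes, and replicates 2 and 4 lay within the range of the controls, so the groups overlapped. The difference was -0.13 (standard error 0.09), and it was -0.08 without exposed replicate 3 and -0.18 without exposed replicate 4. The SD was 0.88 TPM in control and 1.75 TPM in exposed dishes.

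Fos and Fosb, the classic immediate-early members, were the least abundant of the 8 genes. Fos had 0.94, 1.33, 1.00 and 1.46 TPM in control dishes and 1.11, 1.42, 1.24 and 1.68 TPM in exposed dishes. The groups overlapped, with exposed replicate 4 highest and control replicate 1 lowest. Its difference of 0.12 had a standard error of 0.11, and it lay between 0.05 and 0.20 under the alternative settings. Fosb had 0.25, 0.25, 0.24 and 0.45 TPM in control dishes and 0.45, 0.22, 0.20 and 0.37 TPM in exposed dishes, and it was the 1 member that did not reach the limit for testing, at least 1 TPM in 4 or more dishes. Its groups overlapped, with 1 control and 1 exposed dish sharing the highest value.

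Of the Jun family, Junb was the most abundant gene of all 8. JUNB is a weaker activator than JUN and can oppose it. Junb had 215, 220.1, 188 and 201 TPM in control dishes and 195, 212, 195 and 221 TPM in exposed dishes. The groups overlapped over nearly their whole range, and the means were 206 ± 14.4 and 206 ± 12.8 TPM (SD, n = 4 each). JUND, encoded by Jund, is the Jun protein that is typically made without stimulation. Jund had 70.7, 69.0, 57.0 and 60.7 TPM in control dishes and 58.3, 70.7, 57.1 and 65.7 TPM in exposed dishes. Each condition held dishes near 57 TPM and dishes near 71 TPM, and the difference of -0.03 had a standard error of 0.10. Jun encodes the founding member, whose activity is raised through phosphorylation by the kinase JNK. Jun had 15.4, 15.3, 14.4 and 15.7 TPM in control dishes and 15.4, 15.5, 15.5 and 14.5 TPM in exposed dishes. The groups overlapped, the difference was smaller than 0.01 in size, and the lowest dish was a control.

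Atf3 encodes a stress-inducible zipper protein that pairs with Jun proteins. Its TPM was 9.92, 9.91, 9.59 and 9.65 in control dishes and 9.58, 11.2, 9.75 and 8.61 in exposed dishes. The control dishes all lay within the range of the exposed dishes, of which replicate 2 was highest and replicate 4 lowest. The coefficient of variation was 1.76% in control and 10.9% in exposed dishes. The means were 9.77 ± 0.17 and 9.79 ± 1.07 TPM (SD, n = 4 each). The directions of Jun, Junb, Jund, Atf3 and Fosb each turned when single dishes were left out, and those of Fos, Fosl1 and Fosl2 were the same under the 12 alternatives that can move a difference of means.

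**Figure D1:**
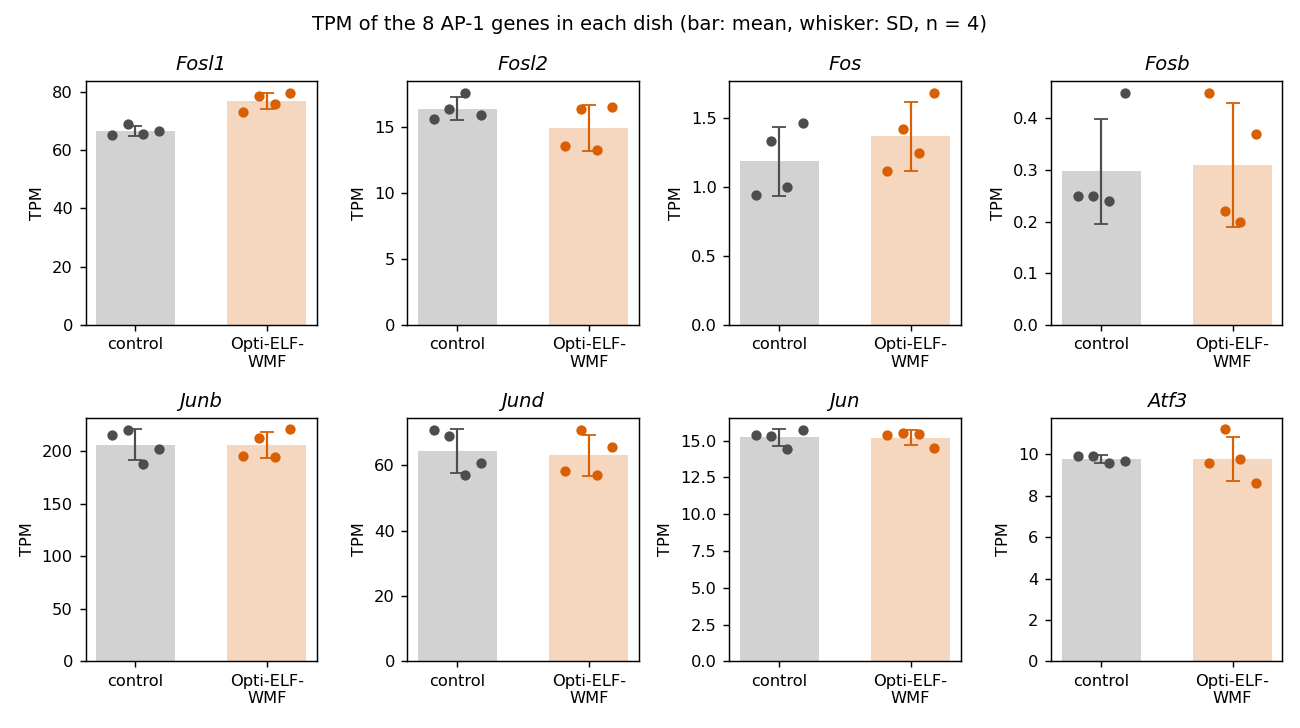
TPM (vertical axes, from 0, with a scale for each gene) of the 8 AP-1 genes in 4 control dishes (grey) and 4 dishes exposed to Opti-ELF-WMF (orange). Points are dishes in order of replicate number, bars are means and whiskers are SD. The exposed dishes of Fosl1 lie between 73.2 and 79.7 TPM, above the control dishes at 65.3 to 69.1 TPM, and the dishes of the other 7 genes overlap.

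Across the 8 members, 1 gene had exposed dishes that did not overlap the control dishes, Fosl1, which was higher, and 0 were lower. Over the 12122 tested genes, the exposed dishes lay above the control dishes for 971 genes (8.01%) and below them for 225 genes (1.86%). Because the members were chosen on this contrast, nothing is read from their count. With limma, 0 of the tested genes (0%) had an adjusted p-value under 0.05, and 1451 genes (12.0%) were higher and 443 (3.65%) lower with an unadjusted p-value under 0.05. Of these 1894 genes 76.6% were higher. The share was 55.2% after median-of-ratios scaling, 63.3% after upper-quartile scaling and 50% after rescaling without the mitochondria-encoded genes.

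The order of levels was read in control dishes, by TPM. Junb came first at 206 TPM, 3.09 times the level of Fosl1 at 66.6 TPM, and ranked 679 among all genes. Fosl1 and Jund, at 64.3 TPM, did not differ beyond their spread, because the control range of Jund, 57.0 to 70.7 TPM, contained that of Fosl1. Fosl2 at 16.4 TPM and Jun at 15.2 TPM also overlapped in their ranges. Atf3 at 9.77 TPM, Fos at 1.18 TPM and Fosb at 0.30 TPM followed, each apart from the gene before it in every control dish. In exposed dishes the means had the same order except that Jun, at 15.2 TPM, was above Fosl2, at 14.9 TPM. Fosl1 lay above Jund in each of the 4 dishes, with a ratio of 1.26, 1.11, 1.33 and 1.21, against 0.92, 1.00, 1.15 and 1.10 in the control dishes. The ratios of the 2 conditions overlapped.

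The makeup of AP-1 transcripts was mostly Junb. It held 54.2% ± 0.75 of the summed TPM of the 8 genes in control dishes and 53.1% ± 0.78 in exposed dishes (SD, n = 4 each). Fosl1 held 16.6%, 17.2%, 18.6% and 17.9% in control dishes and 19.96%, 19.4%, 20.7% and 19.6% in exposed dishes, which did not overlap. This share does not depend on the scaling of a dish, since all 8 genes are scaled alike. Within the Fos family, Fosl1 made up 79.5%, 79.4%, 77.7% and 78.9% in control and 82.9%, 81.4%, 83.8% and 81.1% in exposed dishes, again apart. The share of the whole Fos family in the 8 genes overlapped, at 22.3% ± 1.31 in control and 24.2% ± 0.37 in exposed dishes, as did the ratio of the summed Jun to the summed Fos family, at 3.38 ± 0.26 and 3.04 ± 0.06 (SD, n = 4 each). The ratio of Fosl1 to Fosl2 was 4.08 ± 0.23 in control and 5.19 ± 0.45 in exposed dishes, and that of Fosl1 to Junb was 0.324 ± 0.02 and 0.374 ± 0.012 (SD, n = 4 each). Both ratios were higher in every exposed dish than in every control dish. These quantities come from the contrast on which the members were chosen and were not tested. The summed TPM of the Fos family was 84.5 ± 2.04 in control and 93.5 ± 4.72 in exposed dishes (SD, n = 4 each), without overlap. After rescaling without mitochondria-encoded genes these sums overlapped, with the lowest exposed dish at 94.9 TPM and the highest control dish at 95.3 TPM. That of the Jun family was 286 ± 21.1 in control and 284 ± 18.2 in exposed dishes, and that of all 8 genes was 380 ± 21.6 and 387 ± 22.9 (SD, n = 4 each), with overlap in both.

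**Figure D2:**
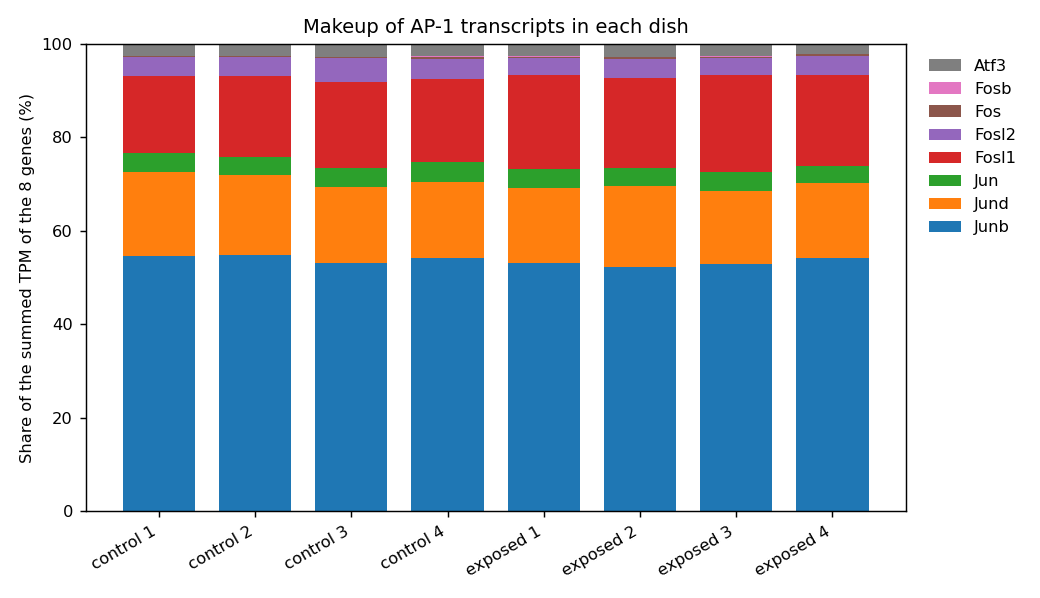
Share of each AP-1 gene in the summed TPM of the 8 genes (vertical axis, percent) in each control and exposed dish (horizontal axis, with replicate number). Junb fills between 52.2% and 54.8% of every dish, and the band of Fosl1 is 16.6% to 18.6% in control dishes and 19.4% to 20.7% in exposed dishes.

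How the members varied together was examined within conditions, which the choice of members did not use. This comparison was added after the values were seen. Each dish was expressed as its deviation from the mean log2(TPM + 1) of its condition, and the 21 pairs of the 7 members that reached the limit were compared by an exact two-sided permutation test over the 576 rearrangements of dishes within conditions. No pair had an adjusted p-value under 0.05. The smallest p was that of Junb and Jund, with Pearson's r of 0.91 (exact permutation p = 0.0208, Benjamini-Hochberg adjusted p = 0.255) and Spearman's rho of 0.76 (exact permutation p = 0.0694, adjusted p = 0.49). Their r was 0.96 in control dishes, 0.84 in exposed dishes and 0.92 without the 2 dishes farthest from the median of Junb. The next pair was Fos and Fosl1, with r of 0.80 (exact permutation p = 0.0243, adjusted p = 0.255), rho of 0.86 (exact permutation p = 0.0208, adjusted p = 0.438) and r of 0.95 without the 2 dishes farthest from the median of Fos. Their r was 0.66 in control dishes and 0.95 in exposed dishes. Replicates had the same order by Fosl1 as by Fos in exposed dishes, and in control dishes replicates 2 and 4 changed places.

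**Figure D3:**
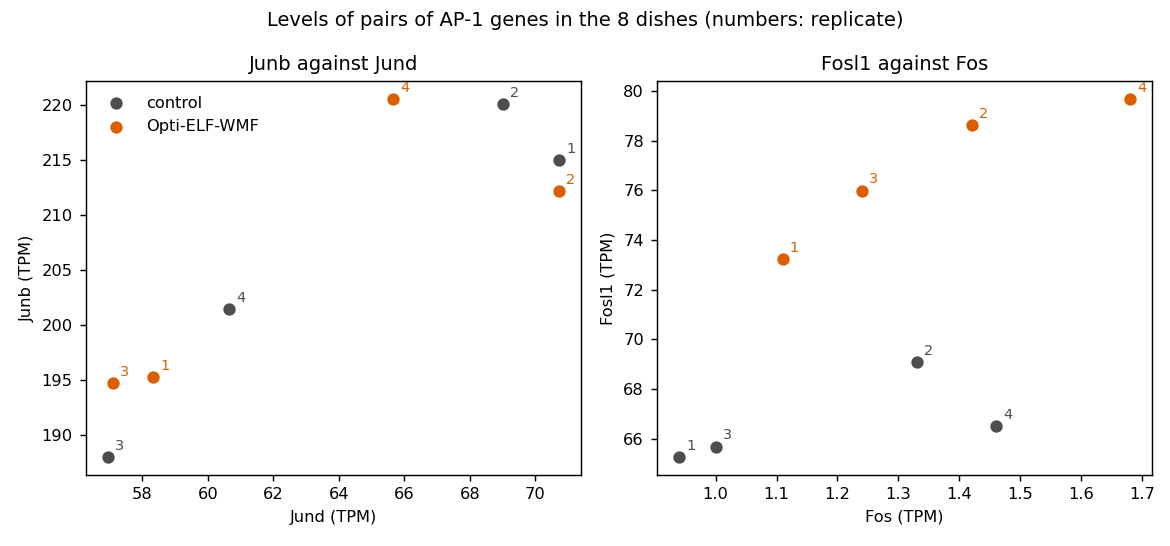
TPM of Junb against Jund (left) and of Fosl1 against Fos (right) in the 4 control dishes (grey) and 4 exposed dishes (orange), numbered by replicate. Junb and Jund were both low in control replicate 3 and in exposed replicates 1 and 3, and Fosl1 separates the conditions at 69.1 and 73.2 TPM while Fos does not.

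Junb and Jund are also alike in base composition. The transcripts of Jund, Junb and Fosl1 had a GC content of 67.1%, 62.7% and 61.8%, above at least 98.5% of the tested genes, against 51.1% to 56.7% for the other 5 members. The mean log2(TPM + 1) of the 1212 tested genes richest in GC (at least 58.0%) minus that of the 1212 poorest (at most 42.8%), as a deviation from the mean of all dishes, was 0.027, 0.031, -0.038 and -0.004 in control dishes and -0.013, 0.046, -0.088 and 0.04 in exposed dishes. It was highest in control replicates 1 and 2 and in exposed replicates 2 and 4, the dishes in which Junb and Jund were highest within their conditions. The part of base composition in their covariation was not tested.

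In the GENCODE M21 annotation of GRCm38, the same assembly as mm10, Fosl1 (ENSMUSG00000024912) is on the plus strand at chr19:5447547-5455946, and its coding transcripts have 3 or 4 exons. Jun (ENSMUSG00000052684) at chr4:95049034-95052222, Junb (ENSMUSG00000052837) at chr8:84974484-84978718 and Jund (ENSMUSG00000071076) at chr8:70698949-70700616 each have a single exon in their coding transcript. Fos (ENSMUSG00000021250) at chr12:85473890-85477273, Fosl2 (ENSMUSG00000029135) at chr5:32135801-32157842 and Atf3 (ENSMUSG00000026628) at chr1:191170296-191218039 have 4 exons in their coding transcripts, and Fosb (ENSMUSG00000003545) at chr7:19302696-19310051 has 3 to 5. Several members have a gene on the opposite strand. Libraries came from a stranded kit, but the strand setting of the counting is not given in the sources used here, so reads of such a pair cannot be told apart with certainty. Ccdc85b shares 1163 of the 2033 exon bases of Fosl1, and it had 19.99, 20.04, 16.4 and 16.4 TPM in control dishes and 16.9, 19.1, 16.2 and 18.8 TPM in exposed dishes. The groups of Ccdc85b overlapped, and the part of its reads in the TPM of Fosl1 was not tested. Gm11175 lies wholly over Jund, sharing 877 of its 1668 exon bases, and it varied widely, with 32.1, 12.5, 4.29 and 1.03 TPM in control dishes and 7.73, 5.52, 0.93 and 0.83 TPM in exposed dishes. Prdx2, a peroxiredoxin gene at 401 ± 10.9 TPM in control and 414 ± 10.9 TPM in exposed dishes (SD, n = 4 each), shares 173 of the 2301 exon bases of Junb, and Junos shares 232 of the 3189 of Jun.

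Promoter sequences from RefSeq (GRCm38.p6) were at hand for 7 of the 8 members. Each had 250 bases before and 50 after the start site. Fosl1 had no entry among the promoters used here, which says nothing of RefSeq as a whole. The promoters of the 3 Jun genes and Fos are shown, because the Jun genes supply the partner that every Fos protein needs and Fos is the member best known for rapid induction. They are chr4:95052173-95052472 on the minus strand for Jun, chr8:84978699-84978998 on the minus strand for Junb, chr8:70697489-70697788 on the plus strand for Jund and chr12:85473640-85473939 on the plus strand for Fos, printed 5′ to 3′ with capitals marking the motifs found.
Jun: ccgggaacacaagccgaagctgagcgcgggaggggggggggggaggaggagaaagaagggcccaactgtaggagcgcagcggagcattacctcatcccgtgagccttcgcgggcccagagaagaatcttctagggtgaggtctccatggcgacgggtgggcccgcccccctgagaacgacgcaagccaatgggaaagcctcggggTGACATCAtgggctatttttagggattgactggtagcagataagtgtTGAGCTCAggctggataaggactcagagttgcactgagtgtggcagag
Junb: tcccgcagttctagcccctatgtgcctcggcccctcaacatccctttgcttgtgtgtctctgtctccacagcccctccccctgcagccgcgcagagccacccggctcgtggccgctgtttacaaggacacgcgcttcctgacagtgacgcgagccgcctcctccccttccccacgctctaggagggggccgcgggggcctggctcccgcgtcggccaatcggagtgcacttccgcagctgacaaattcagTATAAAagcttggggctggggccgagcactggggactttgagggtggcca
Jund: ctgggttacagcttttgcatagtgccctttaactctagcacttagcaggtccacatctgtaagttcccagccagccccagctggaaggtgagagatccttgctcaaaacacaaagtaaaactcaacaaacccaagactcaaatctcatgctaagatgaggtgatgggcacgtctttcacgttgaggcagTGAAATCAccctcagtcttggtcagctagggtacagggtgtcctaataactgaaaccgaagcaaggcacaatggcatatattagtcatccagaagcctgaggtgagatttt
Fos: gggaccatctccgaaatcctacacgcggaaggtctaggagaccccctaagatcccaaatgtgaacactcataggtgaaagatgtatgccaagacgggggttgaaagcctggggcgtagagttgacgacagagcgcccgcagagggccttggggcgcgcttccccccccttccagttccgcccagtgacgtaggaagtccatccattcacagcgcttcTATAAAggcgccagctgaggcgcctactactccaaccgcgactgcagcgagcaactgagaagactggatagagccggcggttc
The motifs searched on both strands were TGANTCA, the AP-1 site, TGANNTCA and TGACGTCA, the related sites bound by dimers with ATF and CREB proteins (every TGACGTCA is also a TGANNTCA), the CArG box and TATAAA. The capitals in Jun mark 2 matches to TGANNTCA, which begin 45 bases before the start site and at base 3 after it, and Jund holds 1 match, 61 bases before its start. TATAAA was found in Fos, 33 bases before the start, and in Junb, at base 1. Over all 32851 promoters of the table, TGANNTCA was in 14.1%, TATAAA in 13.6%, TGANTCA in 7.81%, TGACGTCA in 1.79% and the CArG box in 1.63%. TGANTCA, TGACGTCA and the CArG box were in 0 of the 7 member promoters, which says only that these letters are not in these windows. The start sites of this table are not all those of GENCODE M21. The RefSeq start lies 1210 bases before the GENCODE start for Jund and 30 bases before it for Junb, and 34706 bases after it for Atf3, 671 for Fosl2 and 6 for Fosb, while Fos and Jun have the same start in both. The windows of Jund, Atf3 and Fosl2 therefore cover other stretches than that annotation would give, and the TATAAA of Junb begins 30 bases before its GENCODE start.

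The genes around AP-1 were described by 5 lists, each set beside the share of all tested genes. The lists were written with earlier results of these data known, so their shares are a description and were not tested. None held a gene with an adjusted p-value under 0.05 by limma.

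The first list, other basic leucine zipper proteins that can pair with AP-1 members or compete with them, had 46 genes with Cebpz, a CCAAT-binding factor that lacks such a zipper, and 33 of them reached the limit for testing. At an unadjusted p-value under 0.05, 3 genes (9.09%) were higher and 3 (9.09%) lower, beside 12.0% and 3.65% of all tested genes. After median-of-ratios scaling, upper-quartile scaling or rescaling without mitochondria-encoded genes, 0 were higher, where 6.79%, 8.20% and 5.68% of all tested genes were. Without control replicate 2 the higher count was 1, where 9.60% of all tested genes were higher. Without control replicate 4 the lower count was 5, where 3.28% of all tested genes were lower. The median difference of the list was 0.028, beside 0.026 for all tested genes, and it was 0.011 without exposed replicate 2 and 0.046 without exposed replicate 1. The median was 0.006 with median-of-ratios scaling and -0.001 after rescaling without mitochondria-encoded genes, beside 0.005 and -0.002 for all tested genes. Atf4, the main factor of the integrated stress response and the most abundant of the list, had 300.3 ± 3.72 TPM in control and 313 ± 3.17 TPM in exposed dishes (SD, n = 4 each), a difference of 0.06 (standard error 0.02, limma adjusted p = 0.217), and its dishes did not overlap except after upper-quartile scaling. Cebpz differed by 0.08 and Atf2, a target of stress kinases that pairs with JUN, by 0.11. Among the lower genes, Mafg, a small Maf protein, had 37.2, 38.1, 39.2 and 38.7 TPM in control and 33.0, 34.6, 34.6 and 36.5 TPM in exposed dishes, a difference of -0.14 (standard error 0.04, limma adjusted p = 0.14). Every exposed dish was below every control dish, as it also was for Xbp1, a factor of the unfolded protein response, at -0.09, and for Crebzf at -0.15.

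The second list held kinases, small GTPases and serum response factors that lie upstream of AP-1 genes, with 42 genes in the data and 40 tested. Of these, 6 (15.0%) were higher and 0 lower with an unadjusted p-value under 0.05, beside 12.0% and 3.65% of all tested genes, and the median difference was 0.024. Leaving out single dishes moved this median from 0.007 (without exposed replicate 2, where that of all tested genes was 0.016) to 0.054 (without exposed replicate 1, where it was 0.037). Median-of-ratios scaling gave 0.002, and the value was -0.005 after rescaling without mitochondria-encoded genes, where the medians of all tested genes were 0.005 and -0.002. Nras, a GTPase that activates the ERK cascade, had 105, 103, 100.4 and 107 TPM in control and 111, 116, 111 and 116 TPM in exposed dishes. The groups did not overlap, and the difference of 0.13 had a standard error of 0.03 (limma adjusted p = 0.122). Hras, the most abundant gene of the list at 157 ± 1.07 TPM in control and 163 ± 2.03 TPM in exposed dishes (SD, n = 4 each), also did not overlap. Rps6ka2, a kinase that ERK activates, differed by 0.20, and Map2k1, the kinase MEK1 that phosphorylates ERK, by 0.11 with overlapping dishes. The 3 genes with the smallest p-values among those below 0 were Map3k3 at -0.04, Mapk11 at -0.07 and Mapk7, which encodes ERK5, at -0.10, and all had an unadjusted p-value of at least 0.302 in limma. The dishes of Rps6ka2 overlapped after each of the 3 scalings.

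The third list held enzymes and cofactors that degrade, modify or assist AP-1 proteins, with 26 genes in the data and 25 tested. Of these, 7 (28.0%) were higher and 0 lower with an unadjusted p-value under 0.05, beside 12.0% and 3.65% of all tested genes. The higher count was 3 after rescaling without mitochondria-encoded genes, where 5.68% of all tested genes were higher. The median difference was 0.05, and 0.021 after that rescaling, and it lay between 0.038 and 0.065 when single dishes were left out. Smarca4, the BRG1 motor of the SWI/SNF remodeller, had 99.2, 98.6, 98.3 and 100.5 TPM in control and 103, 112, 107 and 107 TPM in exposed dishes. The groups did not overlap, and the difference was 0.11 (standard error 0.03, limma adjusted p = 0.139). Hdac3, a histone deacetylase, differed by 0.08, although its dishes overlapped after each of the 3 scalings. Ddb1, an adaptor of CUL4 ubiquitin ligases and the most abundant at 640 ± 26.5 TPM in control and 689 ± 35.3 TPM in exposed dishes (SD, n = 4 each), differed by 0.11 with overlapping dishes. Trib1, an adaptor of the ligase COP1, and Men1, whose product menin binds JUND, both differed by -0.01 with overlapping dishes.

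Among known targets of AP-1, 34 of 45 genes were tested, and 9 (26.5%) were higher and 1 (2.94%) lower with an unadjusted p-value under 0.05, beside 12.0% and 3.65% of all tested genes. The higher count was 8 or 9 under the 3 scalings, where 5.68% to 8.20% of all tested genes were higher, and 14 without exposed replicate 1, where 13.4% were. The median difference was 0.041, or 0.012 after rescaling without mitochondria-encoded genes, and 0.074 without exposed replicate 1, where that of all tested genes was 0.037. Plaur, the urokinase receptor, had 97.9, 104, 104 and 104 TPM in control and 117, 117, 112 and 116 TPM in exposed dishes. Its dishes did not overlap, with control replicate 1 lowest, and the difference was 0.17 (standard error 0.03, limma adjusted p = 0.122). Hmga1 and Hmga2, architectural proteins of chromatin, differed by 0.16 and 0.12, both without overlap, although the dishes of Hmga2 overlapped after median-of-ratios scaling and after rescaling. Vim, which encodes the intermediate filament vimentin, was the most abundant at 1353 ± 39.7 TPM in control and 1461 ± 57.2 TPM in exposed dishes (SD, n = 4 each), with overlap. The 1 lower gene was Vegfa, an angiogenic growth factor, with 13.5, 15.9, 15.6 and 13.99 TPM in control and 12.9, 12.6, 13.5 and 12.6 TPM in exposed dishes, a difference of -0.18 (standard error 0.06, limma adjusted p = 0.194). The groups of Vegfa overlapped, since 1 exposed dish at 13.47 TPM was above the lowest control dish at 13.45 TPM. The chemokine Cxcl1 differed by -0.10 and the cytokine Lif by -0.08, both with overlap.

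Immediate-early genes outside AP-1 offer a comparison with Fos and Fosb, since growth factors and serum induce them by the same routes. Of 42 genes 34 were tested, and 5 (14.7%) were higher and 1 (2.94%) lower with an unadjusted p-value under 0.05, beside 12.0% and 3.65% of all tested genes, with a median difference of 0.017. The lower count was 0 without control replicate 1, 2 or 3 or exposed replicate 1 and with the replicate block, and 2 without control replicate 4. Between 2.72% and 4.23% of all tested genes were lower in these settings. The median was -0.005 without control replicate 3, -0.003 without exposed replicate 2, 0.031 without exposed replicate 3, and 0.005 and 0.004 without control and exposed replicate 4. That of all tested genes lay between 0.016 and 0.029 without these dishes. The lower count was 3 under each of the 3 scalings, where 4.76% to 5.68% of all tested genes were lower. The median was -0.006, 0.005 and -0.013 for median-of-ratios, upper-quartile and mitochondria-free scaling, beside 0.005, 0.015 and -0.002 for all tested genes. Myc, a growth regulator, had 89.8, 92.0, 86.1 and 92.1 TPM in control and 100.1, 99.3, 96.4 and 101 TPM in exposed dishes, a difference of 0.14 (standard error 0.03, limma adjusted p = 0.122). Dusp5 and Dusp6, phosphatases that inactivate ERK, differed by 0.18 and 0.16. The dishes of all these 3 genes did not overlap. Gadd45b, a growth arrest gene, was lower in every exposed dish, at 46.0 ± 0.37 TPM in control and 43.5 ± 1.87 TPM in exposed dishes (SD, n = 4 each), and the orphan receptor gene Nr4a2 at -0.15 and the antiproliferative gene Btg2 at -0.09 overlapped. Ccn2, a matricellular protein gene and the most abundant of the list, had 669 ± 13.9 and 676 ± 26.4 TPM (SD, n = 4 each), and its difference of 0.01 turned negative after median-of-ratios scaling and after rescaling.

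**Figure D4:**
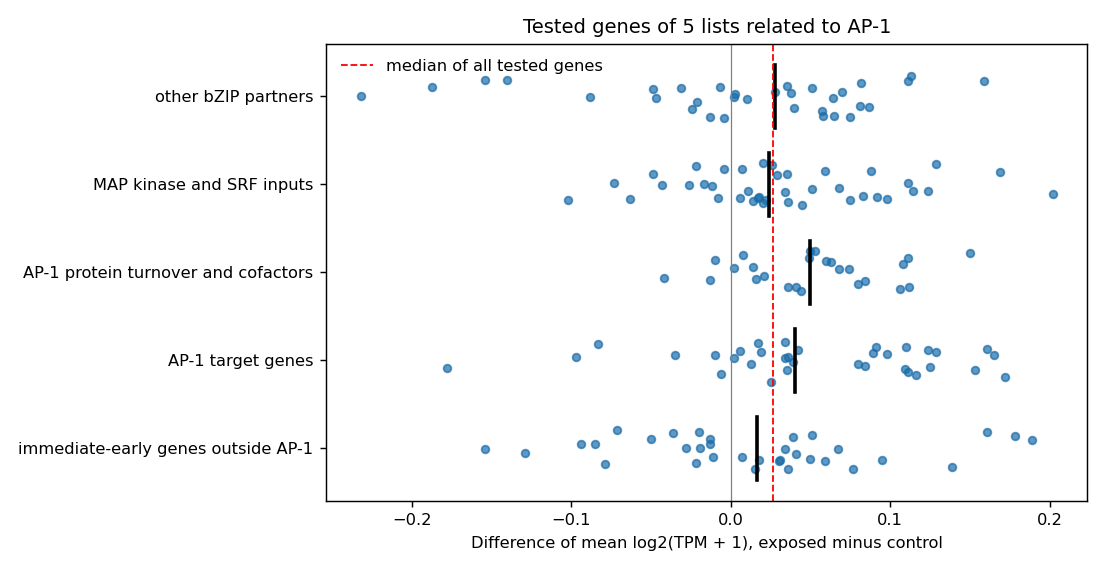
Difference of mean log2(TPM + 1), exposed minus control (horizontal axis), of the tested genes of 5 lists (rows), with 1 point for each gene, scattered vertically only for legibility. Black bars are the medians of the lists, between 0.017 and 0.05, and the dashed line is the median of all tested genes at 0.026.

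The genes whose levels over the 8 dishes were most like those of Fosl1, by Pearson's r of log2(TPM + 1), were Aurkaip1 and Il4ra at 0.98, and Idh3b, Nbn and Mecom at 0.97. All 5 were higher in exposed dishes without overlap, which a likeness to Fosl1 over both conditions favours. The r of deviations from condition means was 0.82, 0.85, 0.80, 0.72 and 0.77 for these genes in the same order. The choice of the 5 genes used the same dishes and favours these values too, so they are not separate support. Il4ra, the receptor chain for interleukin 4 and interleukin 13, had 11.3, 11.6, 11.04 and 11.1 TPM in control and 12.2, 13.0, 12.3 and 12.8 TPM in exposed dishes. Among the 5 lists, the gene most like Fosl1 was Errfi1, a feedback inhibitor of the EGF receptor, at rank 58 with r of 0.93 (0.39 for deviations).

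For comparison over the whole table, the genes with the smallest p-values were Gm15446, Cfl1 and Mcm3 among those higher and 1110028F11Rik, Fgfr3 and mt-Co1 among those lower. The difference was 1.52 for Gm15446, 0.15 for Cfl1, an actin-severing protein gene, and 0.15 for Mcm3, a subunit of the replicative helicase. It was -0.70 for 1110028F11Rik (limma adjusted p = 0.0572, the smallest of all genes), -0.51 for the growth factor receptor gene Fgfr3 and -0.36 for mt-Co1, a subunit of cytochrome oxidase whose reads may be shared with nuclear copies of mitochondrial DNA. The difference of Fosl1, at 0.20, lay above those of Cfl1 and Mcm3 in size and below those of the other 4.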

How the data were processed

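RNA from 4 control dishes and 4 exposed dishes was sequenced, and the authors deposited TPM values for 55401 genes per dish. The submitters' processing notes name Trimmomatic 0.39, STAR 2.7.4a, RSEM 1.3.3 and mm10, and the annotation is not given in the sources used here. TPM keeps no depth, so no interval or detection floor is given. A gene was tested if 4 or more dishes reached 1 TPM (12122 genes), with limma 3.58.1 in R 4.3.3 on log2(TPM + 1), eBayes with a trend and Benjamini-Hochberg adjustment over these genes, two-sided. The script was first tested on simulated data. The paper does not state whether all replicates came from 1 batch of cells, and p-values measure the spread between these dishes alone. Python 3.11.15 and scipy 1.17.1 were used for the rest.

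The members and lists were chosen with earlier results of these data known, and the covariation and base composition were added after the values were seen. The rule for named genes took the 8 members, the most abundant tested gene of each list with its 3 smallest p-values per direction, the 3 smallest per direction in the whole table, and the 5 genes most like Fosl1. Not every gene this rule covers is reported here. Ddit3 is listed under 2 identifiers, and the one with the higher mean was used. Alternatives were another pseudocount, other filters and scalings, the replicate block and the omission of each dish in turn.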

Additional observations from a re-analysis of the deposited data

Results flagged for a closer look

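In groups of 4 dishes, a dish that stood apart from the other 3 by more than Dixon's limit was sought among 112 groups of the named genes and summed levels, and 8 were found, where chance gives about 1 in 20, or 5.6. Fosb was at 0.45 TPM in control replicate 4, against 0.24 to 0.25 in the others, and Jun was at 14.48 TPM in exposed replicate 4, against 15.36 to 15.52. Plaur was at 97.86 TPM in control replicate 1, against 103.72 to 104.21, and at 112.39 TPM in exposed replicate 3, against 116.21 to 116.9. Dusp6 was at 53.06 TPM in control replicate 2, against 48.91 to 49.32. Gm15446 was at 11.61 TPM in the same dish, against 5.18 to 5.84. Aurkaip1 was at 75.9 TPM in that dish, against 72.47 to 72.95, and at 78.68 TPM in exposed replicate 1, against 81.81 to 82.43. Control replicate 2 gave 3 of the 8.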

How the results depend on the processing

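The difference of Fosl1 was above 0 under the 12 alternatives that can move it (the filters and the replicate block cannot), between 0.174 and 0.226, and between 0.186 and 0.226 when each dish was left out. The count of genes with an adjusted p-value under 0.05 by limma was 0, and it was 1 (1110028F11Rik) with a TPM of at least 1 required in every dish, after median-of-ratios scaling and after upper-quartile scaling. Leaving out each dish gave 0 to 2 (Fgfr3 and Gm15446 without control replicate 2, and 1, Gm7329, without control replicate 3). With genes above 0 in any dish, which adds genes of low level, 832 genes were lower with an unadjusted p-value under 0.05 and 365 lower without overlap. Median-of-ratios scaling gave 823 higher and 669 lower by p-value and 555 higher and 408 lower without overlap, and rescaling without mt- genes gave 688, 689, 464 and 405. The share of TPM held by mt- genes enters the last of these by construction, and the cause of the other shifts was not tested. Leaving out each dish gave 1066 to 1625 higher and 330 to 513 lower by p-value, and 1098 to 1622 higher and 301 to 488 lower without overlap. The counts without overlap go up with fewer dishes by construction. The highest were 1622 without exposed replicate 1 and 488 without control replicate 1, with 435 without exposed replicate 4 and 407 without exposed replicate 2. Same-numbered dishes did not deviate together (correlations -0.0348, -0.0419, 0.000369 and 0.0258), no dish matched best with its own number, and with the replicate block 0 genes had an adjusted and 1889 an unadjusted p-value under 0.05. TPM keeps no depth, so the counting error of low genes such as Fos and Fosb is unknown. The incubator and the exposure cannot be told apart.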
